A study of Mus musculus with 7 samples.

Results

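The genes described here form the p53 and DNA break response: 34 genes chosen by symbol from the 35976 gene symbols of the count table, comprising p53 with its regulators, genes that p53 is known to activate, and genes that sense or repair double-strand breaks. All 34 were in the table, and 30 had enough counts to be tested, among 14412 tested genes. The libraries came from neurons isolated from the amygdala of male C57BL/6J mice, 4 that received a guide RNA against the Rosa locus (sgRosa, the control) and 3 that received a guide against Nr2f2 (sgNr2f2), a nuclear receptor gene. Guides were delivered by adeno-associated virus (AAV), with Cas9 expression under the neuronal Hsyn promoter, and were left to express for more than 2 weeks. Every mouse of both groups was then restrained in a tube on 7 days, fear conditioned on 1 day and taken through extinction on 3 days. Both groups therefore carried Cas9 with a guide that directs cutting, and all were stressed. No library without Cas9 was analysed, so the comparison is of one guide against another and not of cutting against no cutting. The age of the mice, and whether a library held 1 animal or a pool, are not given in the labels, so p-values measure only the spread between these libraries.

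p53, encoded by Trp53, is a transcription factor that is kept low by the ubiquitin ligase Mdm2 and its partner Mdm4. A double-strand break activates the kinases Atm, Atr and DNA-PK, which act through Chek1 and Chek2 to stabilise the p53 protein. p53 then raises genes that stop the cell cycle, such as Cdkn1a, that favour cell death, such as Bax and Bbc3, and that limit its own activity, such as Mdm2. Neurons do not divide and join broken ends mainly by non-homologous end joining, in which the Ku proteins (Xrcc5 and Xrcc6), DNA-PK (Prkdc) and the ligase Lig4 take part. p53 is controlled largely as a protein, so the level of Trp53 transcript need not move when the pathway is active.

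Total counts ran from 6266897 to 20928677 per library. Levels are given in CPM, read counts scaled to library size with edgeR's TMM scaling factors. Taking 3 counts as the limit, a count of 0 allows a level of up to 0.141 to 0.409 CPM. The libraries were labelled as neurons, but 10 neuron markers took 0.0317 to 0.138% of counts and 10 oligodendrocyte markers took 2.69 to 32.2%. Each of these 20 markers had counts in every library. Fewer cells of a type and less RNA per cell cannot be told apart in such bulk samples. Cas9 was under a neuronal promoter, and the share of RNA that came from cells with Cas9 is not known. The levels below are those of the whole mixture and need not be those of cut cells. sgRosa replicate 4 stood apart. It had the lowest total and a mean correlation with the other libraries of 0.72, against 0.88 to 0.90 for the rest. It had the lowest share of oligodendrocyte markers and 3.70% of counts in erythroid markers, against 0.0958 to 0.318% elsewhere. Its share of neuron markers was the highest, 0.138% against 0.0317 to 0.0931% elsewhere. Results that rest on this library are given with and without it. Nr2f2 itself lay at 19.8, 16.5, 11.3 and 13.1 CPM in sgRosa replicates 1 to 4 and at 11.6 to 12 CPM in sgNr2f2, with an adjusted p of 0.905 by edgeR's quasi-likelihood test. Cas9 edits need not lower a transcript count, so these values do not check the labels.

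The question asked of these genes was whether targeting Nr2f2 rather than Rosa went with a different p53 and repair programme. None of them passed. By edgeR's quasi-likelihood test with Benjamini-Hochberg adjustment, 0 of the 30 tested genes of the set had an adjusted p under 0.05, against 0% of all tested genes in either direction. By edgeR's unadjusted p under 0.05, the set held 1 higher gene, Cdkn1a, and 0 lower genes, against 2.18% and 2.82% of all tested genes (314 and 407). With library totals alone as the scaling those numbers were 127 and 621, and 0 of the 30. DESeq2, which gave Bax no adjusted p, and limma-voom with quality weights also called 0 of the 30. In the edgeR fit 11 of the 30 had a log2 fold change above 0 (36.7%, against 43.8% of all tested genes), and the median was -0.11 for the set and -0.11 for all tested genes. The largest values were 1.23 for Cdkn1a and -1.95 for Ddit4l. The 4 libraries of sgRosa did not overlap with the 3 of sgNr2f2 for 2 of the 30, Mdm2 and Tnfrsf10b, both higher in sgNr2f2 (6.67%, against 4.41% of all tested genes), and for 0 on the lower side (against 3.9%). These shares lie near the background or rest on 1 or 2 genes. The separation of Mdm2 and Tnfrsf10b also rests on the TMM factors, 1.39 in sgRosa replicate 1 and 0.79 in sgNr2f2 replicate 3. By library totals alone sgRosa replicate 1 lay above sgNr2f2 replicate 3 for both genes, so their groups overlapped. In the map of levels by library sgRosa replicate 4 stands out, as the lowest library for 15 of the 30 and the highest for 6.

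**Figure D1:**
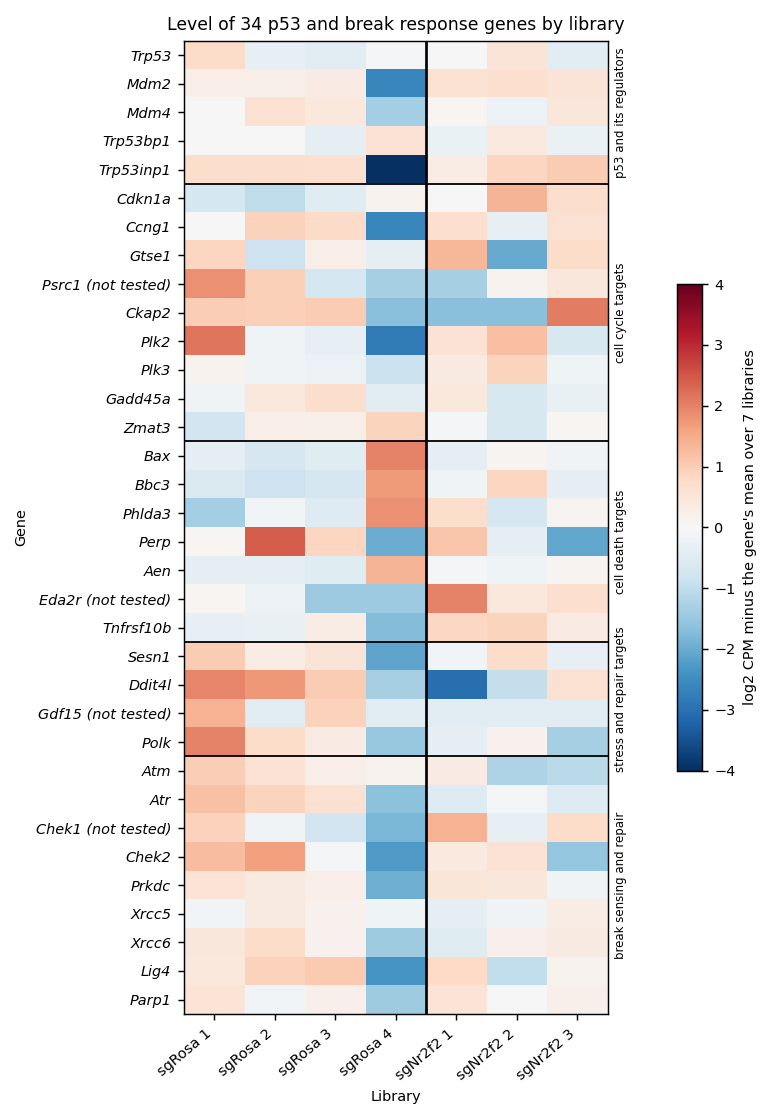
Level of each of the 34 genes (rows, grouped by role) in each library (columns, sgRosa left of the vertical line and sgNr2f2 right), as log2 CPM minus the gene's mean over the 7 libraries, with red above and blue below that mean. The darkest cell is Trp53inp1 in sgRosa replicate 4, whose column is also dark blue for Plk2, Ccng1 and Mdm2 and red for Bax, Phlda3 and Bbc3.

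p53 binds pairs of a short palindromic element, the p53 half-site, and this element was searched by its usual consensus in the 250 bases before each annotated start (RefSeq sequences, build GRCm38.p6). Because the element is its own reverse complement, 1 search covers both strands. Promoters were at hand for 29 of the 34 genes, and 11 of the 29 (37.9%) had at least 1 match, against 8.20% of 27025 genes. A pair of matches with a gap of at most 13 bases occurred in 1 of the 29, Cdkn1a, and in 0.0666% of all genes. Of the 34 genes, 22 had been listed as p53 targets beforehand. All genes with a match were among these except Trp53, and no sensing or repair gene had a match in the promoters at hand. A match is a run of letters and not a measured binding site. The 4 promoters printed are those of genes on which the results turn: Cdkn1a, which leads the comparison of guides, Mdm2 and Ccng1, which were lowest in sgRosa replicate 4, and Bax, which was highest there. Capitals mark the matches, and all are written 5′ to 3′ on the gene's own strand.
Cdkn1a (chr17:29090729-29090978, plus strand): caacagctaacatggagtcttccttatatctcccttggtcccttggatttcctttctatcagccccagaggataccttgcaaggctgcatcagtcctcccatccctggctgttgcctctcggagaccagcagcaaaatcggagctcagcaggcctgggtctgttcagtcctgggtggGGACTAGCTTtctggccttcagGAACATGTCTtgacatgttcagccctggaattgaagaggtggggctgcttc
Mdm2 (chr10:117710759-117711008, minus strand): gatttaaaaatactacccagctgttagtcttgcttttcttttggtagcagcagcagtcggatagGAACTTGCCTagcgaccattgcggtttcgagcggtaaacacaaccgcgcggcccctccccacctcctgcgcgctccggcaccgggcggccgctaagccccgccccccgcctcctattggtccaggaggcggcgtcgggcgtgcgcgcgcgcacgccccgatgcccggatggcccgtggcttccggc
Ccng1 (chr11:40755287-40755536, minus strand): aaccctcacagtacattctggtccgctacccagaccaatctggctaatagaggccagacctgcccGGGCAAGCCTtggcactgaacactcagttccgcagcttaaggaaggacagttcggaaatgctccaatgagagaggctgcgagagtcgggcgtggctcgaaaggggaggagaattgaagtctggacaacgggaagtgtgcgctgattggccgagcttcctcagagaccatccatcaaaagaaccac
Bax (chr7:45466899-45467148, minus strand): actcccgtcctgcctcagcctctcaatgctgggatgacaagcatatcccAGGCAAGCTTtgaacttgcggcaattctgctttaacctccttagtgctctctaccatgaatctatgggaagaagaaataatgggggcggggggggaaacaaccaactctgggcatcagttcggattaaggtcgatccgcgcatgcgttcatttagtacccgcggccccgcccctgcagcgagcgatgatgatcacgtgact
The Cdkn1a promoter printed is that of its more upstream annotated start. Its matches begin 73 and 51 bases before that start and are 12 bases apart. Runs that miss the consensus by a base, as the one directly after the second match, were not counted, so the marked pair need not be the element that p53 uses. The promoter of another annotated Cdkn1a start, further downstream (chr17:29093519-29093768), held 0 matches. The match of Mdm2 begins 186, that of Ccng1 185 and that of Bax 201 bases before the start, each alone. Matches occurred both in genes lowest in sgRosa replicate 4 (Mdm2, Ccng1, Sesn1 and Polk) and in genes highest there (Bax and Aen). Other genes of each kind held none in this window, among them Mdm4 and Plk3 (lowest) and Phlda3 and Bbc3 (highest).

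Among p53 and its regulators, 4 of 5 tested genes had a log2 fold change above 0 (median 0.04), and Mdm2 was the gene whose groups separated. Trp53 (chromosome 11, 69580359 to 69591873, mm10) lay at 15.9, 7.53, 7.07 and 9.13 CPM in sgRosa replicates 1 to 4 and at 9.69, 13.6 and 7.08 CPM in sgNr2f2 replicates 1 to 3. The groups overlapped fully, with 9.91 ± 4.09 CPM (SD, n = 4) and 10.1 ± 3.29 CPM (n = 3), and the log2 fold change was 0.03 with a 95% interval from -0.97 to 1.04, and -0.24 when scaled by library totals alone. Mdm2 (chromosome 10, 117688875 to 117710758), the main inhibitor of p53 and also its target, lay at 53.1, 51.6, 55.4 and 7.22 CPM in sgRosa and at 67.1, 70.2 and 63.8 CPM in sgNr2f2. Every sgNr2f2 library was above every sgRosa library, and sgRosa replicate 4 was far below all others. By library totals alone sgRosa replicate 1 (1133 counts of 15335076) lay above sgNr2f2 replicate 3 (1054 of 20928677), so the groups overlapped. The log2 fold change of Mdm2 was 0.68 (SE 0.60, edgeR adjusted p = 0.893), and 0.33 (SE 0.22, edgeR adjusted p = 0.640) without sgRosa replicate 4, where the means were 53.4 ± 1.90 and 67.0 ± 3.19 CPM.

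Mdm4, which restrains p53 together with Mdm2, lay between 14.2 and 55.9 CPM in sgRosa and between 31.2 and 49.8 CPM in sgNr2f2. Trp53inp1, a p53 target that promotes p53's pro-death activity, lay at 29.8, 30.2 and 29.6 CPM in sgRosa replicates 1 to 3 and at 0.818 CPM, from 6 counts, in replicate 4. It was 22.8, 33.7 and 37.5 CPM in sgNr2f2, so that the first 3 sgRosa libraries, which agreed closely, fell inside the sgNr2f2 range. Trp53bp1, which encodes the chromatin protein 53BP1 that steers breaks towards end joining, ran from 11.4 to 22.5 CPM in sgRosa and from 12.3 to 19.7 CPM in sgNr2f2. Exons of Trp53bp1 overlap those of Tubgcp4 on the opposite strand, and the strand setting of the counting is not given in the sources used here.

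Of 8 tested p53 targets that act on the cell cycle 4 were above 0 (median 0.04), and Cdkn1a led them. It encodes p21, an inhibitor of cyclin-dependent kinases, and lies on chromosome 17 from 29090976 to 29100727. Its levels were 200.3, 161.0, 230.8 and 360.0 CPM in sgRosa replicates 1 to 4 and 319.7, 824.1 and 533.2 CPM in sgNr2f2 replicates 1 to 3. sgNr2f2 replicates 2 and 3 lay above every sgRosa library, while sgNr2f2 replicate 1 lay below sgRosa replicate 4, so the groups overlapped in 1 pair of libraries. The log2 fold change was 1.23 (SE 0.51, 95% interval 0.09 to 2.37, edgeR adjusted p = 0.868). Without sgRosa replicate 4 the groups no longer overlapped and it was 1.5 (SE 0.41, edgeR adjusted p = 0.248). Without sgNr2f2 replicate 2, the library with the highest level, it was 0.85 (the lowest of the 7 fits that left out 1 library), and over those fits the smallest adjusted p was 0.248. DESeq2 gave an adjusted p of 0.488 with all libraries and of 0.0091 without sgRosa replicate 4, an alternative chosen after the data were seen. In that fit it called 256 genes higher and 116 lower of 14096 tested. Cdkn1a was the only one called among the 30, so calls were not particular to the set. Cdkn1a is also known to respond to glucocorticoids. Fkbp5, a standard glucocorticoid-induced gene, lay at 53.7, 150.7 and 88.7 CPM in sgNr2f2 replicates 1 to 3, the order in which Cdkn1a stood. In sgRosa replicates 1 to 4 Fkbp5 lay at 4.17, 19.3, 16.8 and 4.77 CPM, and there the orders differed. sgRosa replicate 2 had the highest Fkbp5 and the lowest Cdkn1a of its group, and sgRosa replicate 4 had the highest Cdkn1a. The part of the glucocorticoid response in the Cdkn1a level was not tested.

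The Polo-like kinases Plk2 and Plk3, which are both p53 targets and early response genes of neurons, differed from each other. Plk3 lay at 64.2, 52.7, 49.0 and 32.0 CPM in sgRosa and at 73.6, 107.5 and 51.1 CPM in sgNr2f2, with a log2 fold change of 0.64 (SE 0.43, edgeR adjusted p = 0.868). Plk2 lay in sgRosa at 647.4, 134.3, 117.0 and 21.3 CPM, and at 219.1, 336.9 and 94.7 CPM in sgNr2f2. Its log2 fold change was -0.09 and became 1.25 without sgRosa replicate 1, the library 7.13-fold above the mean of the other sgRosa libraries. Ccng1, which encodes cyclin G1 and is among the most regular p53 targets, lay at 60.1, 114.8, 103.8 and 9.95 CPM in sgRosa and at 96.3, 48.5 and 92.2 CPM in sgNr2f2. Its groups overlapped, with a log2 fold change of 0.13 that turned to -0.23 without sgRosa replicate 4 and to -0.03 when scaled by library totals alone.

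Gadd45a, a stress sensor that binds PCNA and p21, lay between 9.40 and 20.95 CPM in sgRosa and between 8.18 and 17.1 CPM in sgNr2f2. Zmat3, an RNA-binding p53 target, lay at 8.81, 18.0, 17.5 and 27.9 CPM in sgRosa and at 14.1, 9.64 and 15.9 CPM in sgNr2f2, with a log2 fold change of -0.45 (SE 0.45, edgeR adjusted p = 0.904) and of -0.16 without sgRosa replicate 4. Gtse1, Ckap2 and Psrc1, which are active mainly in dividing cells, were close to the detection limit. Gtse1 had at most 19 counts and Ckap2 at most 25 counts in a library. Psrc1 was not tested, with 21, 9, 1 and 0 counts in sgRosa and 0, 4 and 5 counts in sgNr2f2.

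Among p53 targets that act in cell death 1 of 6 tested genes was above 0 (median -0.31), and 5 of 6 without sgRosa replicate 4 (median 0.55). The receptor gene Tnfrsf10b separated the groups and the Bax group separated sgRosa replicate 4 from the rest. Tnfrsf10b, which encodes a death receptor for TRAIL, lay at 3.14, 3.19, 4.83 and 1.09 CPM in sgRosa and at 7.15, 7.4 and 5.02 CPM in sgNr2f2. Each sgNr2f2 library was above each sgRosa library, by a narrow margin between sgRosa replicate 3 and sgNr2f2 replicate 3. By library totals alone sgRosa replicate 1 (67 counts of 15335076) lay above sgNr2f2 replicate 3 (83 of 20928677), so the groups overlapped. The log2 fold change was 1.08 (SE 0.53, 95% interval -0.11 to 2.26, edgeR adjusted p = 0.868) and 0.81 (edgeR adjusted p = 0.455) without sgRosa replicate 4. Eda2r, another death receptor gene that p53 raises, was not tested because of low counts. It had 5, 3, 0 and 0 counts in sgRosa and 20, 6 and 7 in sgNr2f2, or 0.0992 and 0.657 CPM on average. The separation is not resolved, since 0 counts in sgRosa replicate 4 allow up to 0.409 CPM and sgNr2f2 replicate 2 lay at 0.336 CPM.

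Bax (chromosome 7, 45461697 to 45466898), which permeabilises the mitochondrial membrane, lay at 31.7, 26.3 and 30 CPM in sgRosa replicates 1 to 3 and at 165.3 CPM in replicate 4. It lay at 32.4, 45.2 and 37.7 CPM in sgNr2f2, above the first 3 sgRosa libraries and far below replicate 4. The log2 fold change was -0.72 (SE 0.68, edgeR adjusted p = 0.902) with all libraries and 0.39 (SE 0.24, edgeR adjusted p = 0.595) without sgRosa replicate 4. Bbc3, which encodes the BH3-only protein Puma, followed the same pattern, at 8.25, 6.93, 7.69 and 40.2 CPM in sgRosa and 11.0, 22.7 and 9.68 CPM in sgNr2f2. Its log2 fold change of -0.11 became 0.92 once sgRosa replicate 4 was left out (SE 0.36, edgeR adjusted p = 0.400). Phlda3, an inhibitor of Akt signalling, was 218.7 CPM in sgRosa replicate 4, 23.8 to 56.3 CPM in the other sgRosa libraries and 38.6 to 98.6 CPM in sgNr2f2. Aen, a nuclease of p53-dependent apoptosis, was 21.4 CPM in sgRosa replicate 4, 5.92 to 6.52 CPM in the other sgRosa libraries and 7.46 to 8.96 CPM in sgNr2f2. sgRosa replicate 4 was 5.64, 5.27, 5.34 and 3.42 times the mean of the other sgRosa libraries for Bax, Bbc3, Phlda3 and Aen. Perp, a membrane protein gene of epithelia, lay at 6.66, 34.2, 11.7 and 1.5 CPM in sgRosa and at 13.7, 4.88 and 1.39 CPM in sgNr2f2. Its log2 fold change of -1.02 (SE 0.96, edgeR adjusted p = 0.899) became 0.021 without sgRosa replicate 2.

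**Figure D2:**
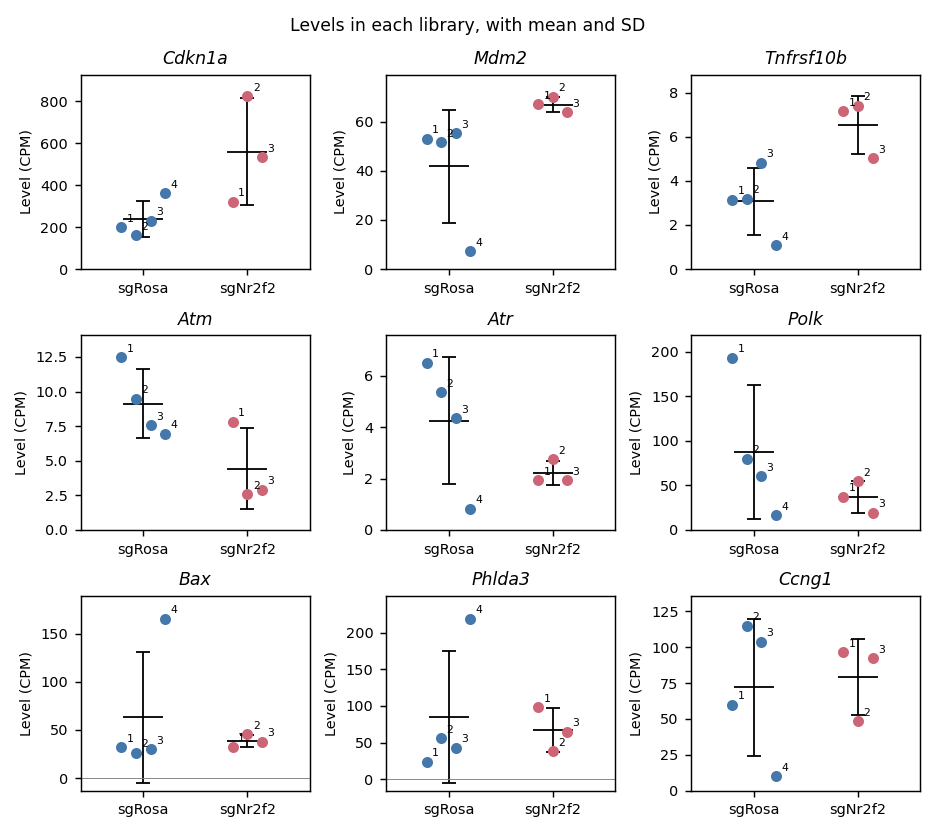
Level in CPM (linear axis) of 9 genes in each library, with points numbered by replicate, blue for sgRosa (n = 4) and red for sgNr2f2 (n = 3), and bars for mean and SD. With the TMM scaling drawn, Mdm2 and Tnfrsf10b do not overlap between groups. The point of sgRosa replicate 4 lies far from the other sgRosa libraries for Mdm2, Bax, Phlda3 and Ccng1.

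All 3 tested p53 targets of stress and repair had log2 fold changes below 0, and 0 passed. Polk, which encodes the translesion polymerase kappa, lay at 193.0, 80.0, 60.2 and 16.8 CPM in sgRosa and at 37.0, 54.9 and 19.4 CPM in sgNr2f2. sgRosa replicates 1 to 3 were above every sgNr2f2 library and replicate 4 was below all of them. The log2 fold change of Polk was -1.24 (SE 0.73, edgeR adjusted p = 0.868), -0.50 without sgRosa replicate 1 and -1.58 (edgeR adjusted p = 0.304) without sgRosa replicate 4. Sesn1, an inhibitor of mTORC1 signalling, ran from 13.6 to 119.5 CPM in sgRosa and from 46.7 to 99.0 CPM in sgNr2f2, with a log2 fold change of -0.11. Ddit4l, a relative of the mTOR inhibitor Redd1, had 80, 59, 28 and 2 counts in sgRosa and 0, 7 and 23 counts in sgNr2f2. Its levels were 2.28 ± 1.55 and 0.595 ± 0.718 CPM, a log2 fold change of -1.95 (SE 1.18, edgeR adjusted p = 0.868), -3.48 without sgNr2f2 replicate 3. Gdf15, a secreted stress hormone gene, had 7, 0, 3 and 0 counts in sgRosa and 0 in each sgNr2f2 library and was not tested.

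Of 8 tested genes of break sensing and repair 2 were above 0 (median -0.24), and 1 without sgRosa replicate 4 (median -0.55). The sensing kinases Atm and Atr had the lowest values. Atm (chromosome 9, 53439149 to 53536740), the kinase activated by double-strand breaks, lay at 12.5, 9.48, 7.55 and 6.95 CPM in sgRosa and at 7.81, 2.58 and 2.91 CPM in sgNr2f2. sgNr2f2 replicates 2 and 3 were below every sgRosa library, and replicate 1 was inside the sgRosa range. The log2 fold change of Atm was -1.04 (SE 0.53, 95% interval -2.21 to 0.13, edgeR adjusted p = 0.868) and ran from -1.74 without sgNr2f2 replicate 1 to -0.77 without sgNr2f2 replicate 2. Atr, the kinase that answers to single-stranded DNA, lay at 6.52, 5.36, 4.35 and 0.818 CPM in sgRosa and at 1.94, 2.75 and 1.94 CPM in sgNr2f2. All sgNr2f2 libraries were below sgRosa replicates 1 to 3 and above replicate 4. Its log2 fold change was -0.96 (SE 0.66, edgeR adjusted p = 0.868) and -1.29 (SE 0.40, edgeR adjusted p = 0.291) without sgRosa replicate 4. Chek2, the kinase that Atm activates, lay at 2.81, 3.79, 1.09 and 0.136 CPM in sgRosa and at 1.51, 1.74 and 0.303 CPM in sgNr2f2, with overlapping groups and a log2 fold change of -0.74 (SE 0.97, edgeR adjusted p = 0.924). Chek1 was not tested, with 15, 5, 2 and 0 counts in sgRosa and 17, 4 and 10 counts in sgNr2f2.

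Prkdc, the catalytic subunit of DNA-PK, lay at 11.5, 9.96, 9.32 and 1.91 CPM in sgRosa and at 11.0, 10.7 and 7.14 CPM in sgNr2f2. Xrcc6, which encodes Ku70, lay at 13.4, 16.4, 10.9 and 3.54 CPM in sgRosa and at 6.90, 11.3 and 12.4 CPM in sgNr2f2. Its exons overlap those of Desi1 on the opposite strand. Xrcc5, which encodes the partner Ku80, lay between 5.04 and 7.42 CPM in sgRosa and between 4.30 and 6.96 CPM in sgNr2f2. Lig4, the end-joining ligase, ran from 0.409 to 5.51 CPM in sgRosa and from 1.23 to 4.60 CPM in sgNr2f2. Parp1, which marks broken DNA with poly(ADP-ribose), lay at 24.7, 15.6, 19.6 and 6.27 CPM in sgRosa and at 25.01, 17.2 and 19.6 CPM in sgNr2f2. The log2 fold changes were 0.22 for Prkdc, -0.12 for Xrcc6, -0.14 for Xrcc5, -0.34 for Lig4 and 0.31 for Parp1, with SEs from 0.43 for Xrcc5 to 0.77 for Lig4. The 95% interval of Xrcc5, from -1.08 to 0.81 on the log2 scale, was the narrowest of these, so near means do not show that the groups were alike.

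**Figure D3:**
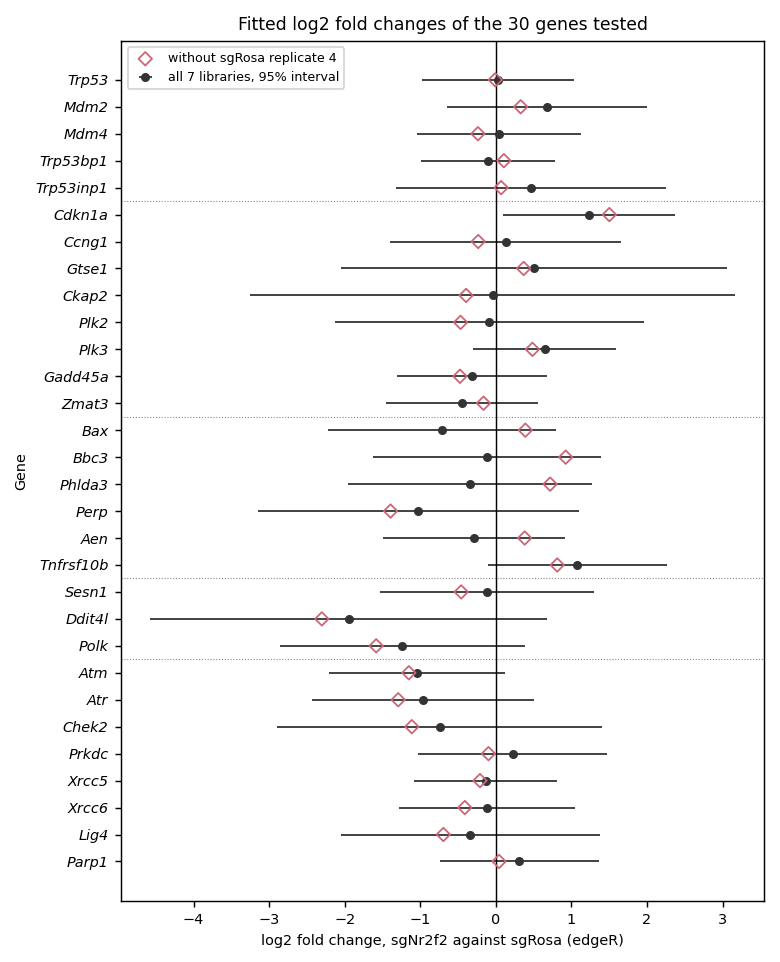
Fitted log2 fold change of sgNr2f2 against sgRosa for the 30 tested genes, with filled circles and 95% intervals for all 7 libraries and open diamonds for the fit without sgRosa replicate 4. Only the interval of Cdkn1a lies wholly above 0, from 0.09 to 2.37 before adjustment, and the diamonds of Bax, Bbc3, Phlda3 and Aen lie on the other side of 0 from their circles.

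sgRosa replicate 4 split the set by gene. It was the highest of the 7 libraries for 6 of the 30 tested genes (Trp53bp1, Zmat3, Bax, Bbc3, Phlda3 and Aen; 20%, against 32.7% of all tested genes) and the lowest for 15 (50%, against 35.2%). The lowest included the direct p53 targets Mdm2, Ccng1, Trp53inp1 and Sesn1 and the repair genes Prkdc, Xrcc6, Lig4 and Parp1. The mean of the other sgRosa libraries was 7.39 times the level of replicate 4 for Mdm2, 9.34 times for Ccng1, 6.75 times for Sesn1 and 36.5 times for Trp53inp1. Genes that p53 is known to raise together therefore stood at opposite ends in this library. The base composition of the transcripts went with the split. The GC content of the longest coding transcript was 63.5% for Bax, 65.2% for Bbc3 and 62.6% for Phlda3, and 38.8% for Trp53inp1, 40.8% for Ccng1 and 46.2% for Mdm2. The split was not clean: the other genes highest in this library were at 47.6% (Zmat3), 48.0% (Trp53bp1) and 51.6% (Aen), near Mdm2, and Plk3, lowest there, was at 59.2%. Across the 30 genes the difference of sgRosa replicate 4 from the mean of the others had a Pearson r of 0.70 and a Spearman rho of 0.62 with GC content. Across 13548 tested genes with a sequence r was 0.37 and rho 0.38, and genes are not independent replicates. For genes above 60% GC the median difference was 1.39 on the log2 scale over 684 genes, and for those up to 45% it was -1.01 over 3140 genes. Exon length had a rho of -0.21 across the 30 genes. Whether composition, the lower depth, the erythroid share or the cell mixture of this library set these levels was not tested.

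**Figure D4:**
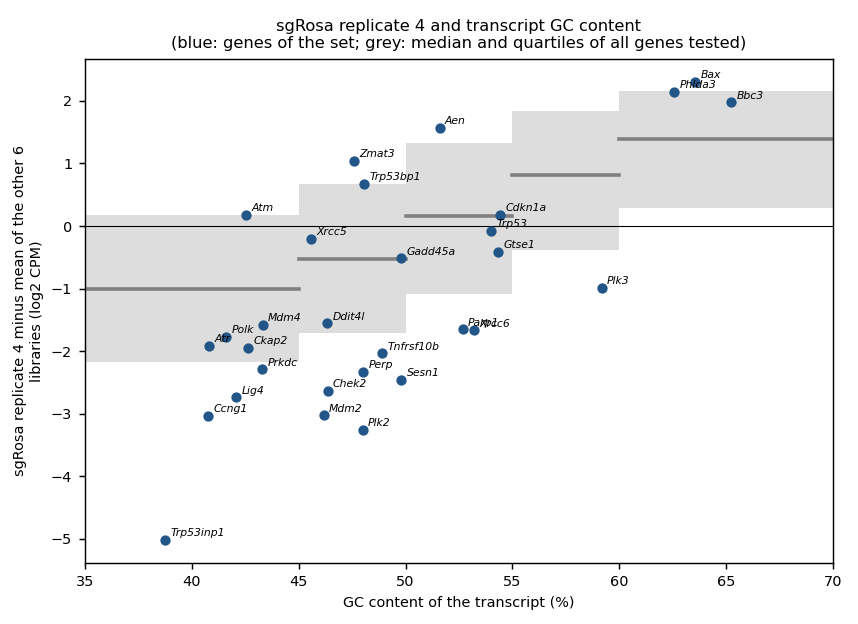
Difference of sgRosa replicate 4 from the mean of the other 6 libraries (log2 CPM, vertical) against the GC content of the transcript (percent, horizontal) for the 30 tested genes (blue points), over the median (grey line) and quartiles (grey band) of all tested genes in 5 classes of GC content. Bax, Phlda3 and Bbc3 lie above 0 at GC contents above 60%, and Trp53inp1 lies lowest at the lowest GC content of the set.

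Without sgRosa replicate 4 the set looked different, although edgeR again called 0 of the 30 and 0% of all tested genes. The groups did not overlap for 6 of the 30 on the higher side, Mdm2, Cdkn1a, Bax, Bbc3, Aen and Tnfrsf10b (20%, against 9.15% of all tested genes). They did not overlap for 3 on the lower side, Ddit4l, Polk and Atr (10%, against 8.93%). By library totals alone sgRosa replicate 1 overlapped with sgNr2f2 for all genes of the higher side but Cdkn1a, and Polk overlapped on the lower side. Before adjustment, p was under 0.05 for 2 genes on the higher side, Cdkn1a and Bbc3 (6.67%, against 6.41%), and for 3 on the lower side, Polk, Atm and Atr (10%, against 4.88%). The median log2 fold change of the 19 tested p53 targets was -0.11 with all libraries and 0.07 without sgRosa replicate 4, and that of the 9 sensing and repair genes was -0.14 and -0.41, beside -0.11 and -0.03 for all tested genes. In this fit 10 of the 19 p53 targets were above 0 and 9 below, against 7 and 12 with all libraries. Those above ran from 0.07 for Trp53inp1 to 1.5 for Cdkn1a and included Bax, Bbc3, Phlda3, Aen, Mdm2 and Tnfrsf10b. Those below were Ddit4l (-2.30), Polk (-1.58), Perp (-1.39), Gadd45a (-0.48), Plk2 (-0.47), Sesn1 (-0.46), Ckap2 (-0.39), Ccng1 (-0.23) and Zmat3 (-0.16). These 6 libraries share the sgNr2f2 samples and 3 sgRosa samples with the full comparison and are no separate evidence.

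Trp53 was highest in sgRosa replicate 1 and in sgNr2f2 replicate 2, and 6 of the 30 tested genes shared this (20%, against 15.1% of all tested genes), a pattern picked out after the values were seen and not particular to the set. sgRosa replicate 1 and sgNr2f2 replicate 2 had the highest levels of Trp53, Plk2, Plk3 and Sesn1 within their groups, at 15.9 and 13.6 CPM for Trp53, 647.4 and 336.9 CPM for Plk2, 64.2 and 107.5 CPM for Plk3 and 119.5 and 99.0 CPM for Sesn1. Polk and Atr were also highest there, Polk at 193.0 and 54.9 CPM. The same libraries had the highest shares of 7 endothelial markers, 0.589% and 0.498%, against 0.172 to 0.207% in 4 of the others and 0.442% in sgRosa replicate 4. They also had less oligodendrocyte RNA than those 4, 13.6% and 17.9% in 10 markers, against 29.0 to 32.2%. The lowest share, 2.69%, was that of sgRosa replicate 4. That library had the lowest levels of all for Plk2, Plk3, Sesn1, Polk and Atr, and lay in between for Trp53, so these levels did not follow the marker shares there. All 7 endothelial markers had counts in every library. The part of this mixture in the levels of the p53 genes was not tested.

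Other genes of the pathway, listed apart from the 34, gave the same count of 0 past edgeR's adjusted threshold in every list. Of 29 tested further p53 target genes 17 had a log2 fold change above 0 (median 0.12, and 0.03 without sgRosa replicate 4). The smallest p was that of Bcl2l1, which encodes Bcl-xL, an inhibitor of Bax. It lay at 378.9, 388.9, 499.6 and 383.6 CPM in sgRosa and at 1523.7, 1790.4 and 974.4 CPM in sgNr2f2. The sgRosa libraries, replicate 4 included, lay close together and every sgNr2f2 library was well above them, with a log2 fold change of 1.79 (SE 0.48, edgeR adjusted p = 0.868). Bcl2l1 was the 1 gene of the 29 whose groups did not overlap on the higher side (3.45%, against 4.41% of all tested genes). Of 12 tested p53 family members and regulators 9 were above 0 (median 0.36), and 8 without sgRosa replicate 4 (median 0.15). Ppp1r13l, which encodes iASPP, an inhibitor of p53, lay at 1.31, 0.65, 3.06 and 7.63 CPM in sgRosa and at 3.94, 17.3 and 15.3 CPM in sgNr2f2 (log2 fold change 1.98, SE 0.81, edgeR adjusted p = 0.868). Without sgRosa replicate 4 its groups did not overlap and the log2 fold change was 2.88. In that setting the groups did not overlap on the higher side for 4 of the 12 (33.3%, against 9.15% of all tested genes).

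Of 16 further genes that sense double-strand breaks, all tested, 11 were below 0, with a median of -0.38 that was -0.27 without sgRosa replicate 4. The groups did not overlap for 3 of the 16, all lower (18.8%, against 3.9% of all tested genes). These were Atmin, which encodes a cofactor of Atm, Rad50, a subunit of the complex that holds broken ends, and Mdc1, a scaffold that binds phosphorylated H2AX. Atmin lay at 9.84, 8.88, 8.71 and 16.9 CPM in sgRosa and at 4.12, 3.20 and 6.11 CPM in sgNr2f2, with a log2 fold change of -1.30 (SE 0.46, edgeR adjusted p = 0.868). Rad50 lay at 16.6, 12.5, 13.5 and 16.5 CPM in sgRosa and at 8.30, 7.74 and 11.3 CPM in sgNr2f2, and Mdc1 at 6.41 ± 1.10 and 4.13 ± 0.75 CPM. sgRosa replicate 4 was not the lowest sgRosa library for Atmin or Rad50. Of 9 further end-joining genes 5 were above 0, and 2 without sgRosa replicate 4 (median -0.20). Groups did not overlap for 1 of the 9 (11.1%, against 4.41% of all tested genes), Poll, a gap-filling polymerase gene, which ran from 3.81 to 6.23 CPM in sgRosa and from 6.42 to 19.2 CPM in sgNr2f2. Of 19 tested genes of homologous recombination and alternative end joining 10 were above 0 (median 0.19), and 8 of 17 without sgRosa replicate 4 (median -0.03). Rbbp8, which encodes the end-resection factor CtIP, lay at 9 to 13.5 CPM in sgRosa and at 16.6, 34.9 and 14.6 CPM in sgNr2f2 (log2 fold change 0.99, SE 0.42, edgeR adjusted p = 0.868).

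Scaled by exon length, the set covered a wide range of transcript levels. Cdkn1a was highest, at 67.0 CPM per kilobase in sgRosa and 157.3 in sgNr2f2, followed in sgRosa by Phlda3 (54.8), Plk2 (51.2) and Bax (40.2). Without sgRosa replicate 4 the sgRosa order was Plk2 (66.7), Cdkn1a (55.6), Ccng1 (26.4) and Phlda3 (26.3). The SD of Plk2 in sgRosa, 282.7 CPM, exceeded its mean of 230.0 CPM, and those of Phlda3 (89.9 and 85.4 CPM) and Bax (68.0 and 63.3 CPM) did so too, so the order of these 3 is not resolved. Among repair genes Parp1 (3.13 CPM per kilobase in sgRosa), Xrcc6 (2.47) and Xrcc5 (2.36) lay above Atm (0.881), Lig4 (0.695), Prkdc (0.620) and Atr (0.180). Exon length here is the union over all annotated transcripts, which can understate genes with many long variants.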

How the data were processed

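Read counts of 7 libraries (4 sgRosa, 3 sgNr2f2) were analysed. The authors deposited raw counts by gene symbol, in 1 table that matched all 7 files of single libraries. The submitters' processing notes name STAR 2.7.5c, featureCounts 2.0.1, fastp 0.23.2, edgeR 3.42.4, MultiQC 1.11, FastQC 0.11.9 and mm10. Annotation, strand setting and treatment of multiply mapped reads: not given in the sources used here. No molecular identifiers are named, so limits for a count of 0 cover counting error only.

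The whole table was fitted with edgeR 4.0.16 (R 4.3.3): TMM factors, edgeR's low-count filter (14412 of 35976 genes kept), group as the only term, quasi-likelihood F test, Benjamini-Hochberg adjustment over all tested genes, threshold 0.05. Log2 CPM used a prior count of 2. DESeq2 1.42.0 and limma 3.58.1 were alternatives, and the fit was tested on simulated data. Positions, exon lengths and transcript GC came from GENCODE M21 (GRCm38, the mm10 assembly).

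The 34 genes, their roles and the further lists were chosen with earlier results of these data known. Every library's value is given for Trp53, Mdm2, Cdkn1a, Ccng1, Bax, Eda2r, Atm, Prkdc, Xrcc6, Parp1, the 12 genes of the set with the smallest p and those not tested, and up to 3 genes with the smallest p are named from each further list. Other values were added after they were seen.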

Additional observations from a re-analysis of the deposited data

Results flagged for a closer look

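In 7 of the 34 genes 1 sgRosa library lay so far from the other 3 that the gap, as a share of the group's range, exceeded Dixon's 95% critical value, and in all 7 it was sgRosa replicate 4. Chance flags about 1 in 20 such groups, and the 7 genes share the same library, so they are not 7 separate events. The share of all tested genes that the same rule flags is not given here. This library was the highest of the 7 for 32.7% of all tested genes and the lowest for 35.2%. The flags therefore do not show that the set differs from other genes. Among the flagged genes the library was high for Bax (165.3 CPM, others 26.3 to 31.7), Bbc3 (40.2 CPM, others 6.93 to 8.25), Phlda3 (218.7 CPM, others 23.8 to 56.3) and Aen (21.4 CPM, others 5.92 to 6.52). It was low for Mdm2 (7.22 CPM, others 51.6 to 55.4), Trp53inp1 (0.818 CPM, others 29.6 to 30.2) and Ckap2 (0 CPM, others 0.650 to 0.680, from 10 to 14 counts).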

How the results depend on the processing

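No result of the set passed edgeR's adjusted threshold under any setting, so the settings bear on directions. Genes called over the whole table numbered 0 higher and 0 lower with edgeR under both other scalings, without a low-count filter, with the replicate block and without each library in turn, and 0 with limma-voom. DESeq2 called 2 higher and 5 lower, and 256 and 116 without sgRosa replicate 4 (chosen after the data were seen). Library totals alone moved the median log2 fold change of all genes from -0.11 to -0.33 and turned Trp53 (-0.24), Mdm4 (-0.15) and Ccng1 (-0.029) negative, and left 0 of the 30 under an unadjusted p of 0.05. DESeq2 turned Ckap2 (0.0057). With limma-voom quality weights the values that changed sign were Mdm4 -0.16, Trp53bp1 0.00093, Ccng1 -0.19, Bax 0.34, Bbc3 0.59, Phlda3 0.56, Aen 0.44 and Prkdc -0.19. With the replicate block, in which sgRosa replicate 4 has no partner and adds nothing to the contrast, they were Mdm4 -0.24, Trp53bp1 0.083, Ccng1 -0.24, Gtse1 -0.16, Bax 0.38, Bbc3 0.82, Phlda3 0.70, Aen 0.38 and Prkdc -0.12. All but Gtse1, which was 0.37 without sgRosa replicate 4, also changed sign when that library was left out. Libraries with the same number did not deviate together (correlations -0.20, -0.26 and 0.09), so the block rests on the number alone. RLE factors and no filter changed no direction among the 30.

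Of the 28 genes with a value in all 7 fits that left out 1 library, 13 held 1 direction. The low-count filter left Gtse1 in 3 of those fits (0.37 to 1.09) and Ckap2 in 6. The others ran from -0.24 to 0.35 (Trp53), -0.24 to 0.29 (Mdm4), -0.36 to 0.11 (Trp53bp1), -0.23 to 0.48 (Ccng1), -6.06 to 0.54 (Ckap2, the lower end with 0 counts in the remaining sgNr2f2 libraries), -0.55 to 1.25 (Plk2), -0.96 to 0.39 (Bax), -0.59 to 0.92 (Bbc3), -0.72 to 0.72 (Phlda3), -2.08 to 0.021 (Perp), -0.46 to 0.38 (Aen), -0.51 to 0.24 (Sesn1), -0.10 to 0.43 (Prkdc), -0.33 to 0.0083 (Xrcc5), -0.41 to 0.15 (Xrcc6) and -0.85 to 0.027 (Lig4). Of these, 9 changed sign without sgRosa replicate 4. The cause was not tested. Where an arm had 2 libraries left, the spread was shared with the other arm. Low counts limited what can be said of Gtse1, Ckap2, Psrc1, Eda2r, Gdf15 and Chek1, which had 25 or fewer counts in every library.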

Other observations

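Immediate early genes respond within minutes to activity or cell stress. Of 19 tested immediate early genes 12 had a log2 fold change below 0 (median -0.30, and -0.16 without sgRosa replicate 4), and 0 passed edgeR's adjusted test. Before adjustment 1 was higher (5.26%, against 2.18% of all tested genes) and 4 were lower (21.1%, against 2.82%) at the same threshold, and without sgRosa replicate 4 it was 2 (10.5%, against 6.41%) and 5 (26.3%, against 4.88%). Fos lay at 666.8, 233.1, 132.6 and 424.5 CPM in sgRosa and at 164.6, 98.1 and 60.7 CPM in sgNr2f2, and Egr3 at 67.0, 31.4, 29.2 and 10.9 CPM and at 12.4, 13.5 and 3.63 CPM. sgRosa replicate 1 had the highest Fos, Egr3 and Plk2 of all libraries. Maff, a small Maf factor, instead lay at 30 to 49.4 CPM in sgRosa and at 93.6, 192.2 and 102.1 CPM in sgNr2f2, highest in the library with the highest Cdkn1a.

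Of 16 tested glucocorticoid response genes other than Cdkn1a 13 were above 0 (median 0.38, and 0.10 with 11 of 16 above 0 without sgRosa replicate 4), and 0 passed. Cables1 lay at 4.11 to 12.95 CPM in sgRosa and at 27.4, 49.4 and 25.7 CPM in sgNr2f2, and Zbtb16 at 27.2 to 74.0 CPM and at 105.7, 215.8 and 178.6 CPM.

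Markers of dividing cells were low in all libraries. Their 16 genes summed to 78.8 CPM of the unscaled total in sgRosa replicate 1 and to 9.57 in sgRosa replicate 4, with the 5 other libraries from 22.4 to 38.9. Pcna gave the most counts of the 16 in every library. In sgNr2f2 replicate 1 it had 320 counts, where Top2a, Ccnb1 and Cenpf had 0, so the sum is no measure of dividing cells there. Mki67 had 81, 29, 8 and 13 counts in sgRosa and 0, 6 and 59 counts in sgNr2f2. Ckap2, a gene of the mitotic spindle, had its 25 counts of sgNr2f2 all in replicate 3, the library with the 59 Mki67 counts. In sgRosa it had 14, 12, 10 and 0 counts. Its level was nearly equal in sgRosa replicates 1 to 3, at 0.650 to 0.680 CPM, where Mki67 differed.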
